A study of Mus musculus with 17 samples.

Results

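The 10 genes described here encode cytokines and receptors of the interleukin-1 (IL-1), tumour necrosis factor (TNF) and interleukin-6 (IL-6) systems, and were chosen by symbol from the 54658 genes of the deposited table. They are Il1b, Il1rn, Il1r1, Il1r2, Il18, Il33, Tnf, Tnfrsf1a, Il6 and Il6ra, all of which had a row. RNA sequencing was run on mouse adipose samples in a study whose title names leptin, complement factor D and osteoarthritis pain. Values are read counts scaled to the library total (counts per 1000000 reads, CPM) in 16 libraries, 2 for each of 8 group codes.

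The KO implants (codes MKM, male, and MKF, female) grew from embryonic fibroblasts (MEF) of pups homozygous for a leptin knockout. The WT implants (MWM, male, and MWF, female) grew from wildtype fibroblasts, and all 4 implant codes are from animals with surgery. Both kinds were injected under the skin of the chest of host mice labelled LD at 3 to 5 weeks of age, an abbreviation that the labels leave unexplained. Endogenous visceral fat came as 3 codes: EVM, with surgery; EVFY, which no label spells out; and EVFN, without surgery. Endogenous subcutaneous fat (ESM) came from males with surgery, and the female subcutaneous sample (ESF) was not analysed here. Surgery destabilised the medial meniscus of the left knee at 16 weeks, and tissue was taken at 28 weeks. The design text calls the hosts male while several codes are marked female, the leptin allele is not given, and the labels do not state that the 2 libraries of a code are different animals; p-values therefore measure the spread between libraries, which may be technical.

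IL-1 beta and TNF are inflammatory cytokines made largely by macrophages and other immune cells, and IL-6 is induced by both. The IL-1 system carries its own brakes: the receptor antagonist encoded by Il1rn occupies the signalling receptor without activating it, and the decoy receptor encoded by Il1r2 binds IL-1 without passing on a signal. In adipose tissue these cytokines are known for their link to macrophage infiltration and to altered lipid storage, and TNF acts through receptors carried by most cells.

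Several libraries stood apart from their labels. Every sample is labelled as ganglia, but 8 adipocyte genes averaged between 1248 and 3977 CPM per library, against 0.699 to 5.60 CPM for 11 sensory neuron genes. Across all tested genes, MKM1 correlated with EVFY1 at r = 0.989 and with the other MKM library at 0.891, while EVFN1 correlated with MKF1 at 0.984 and with the other EVFN library at 0.906. The mesothelial gene Upk3b reached 200.4 CPM in MKM1, beside 0 to 0.0483 CPM in the other 3 KO implants. EVFN1 held 0.0580 CPM of it, beside 61.4 to 201 CPM in the other 5 visceral libraries. Both libraries are therefore shown singly and are left out of group means and of the fit. Cfd, which encodes complement factor D, was at 14068 CPM in MKM1, against 91.4 to 104 CPM in the other KO implants, and at 81.8 CPM in EVFN1, against 5788 to 12351 CPM in the other visceral libraries. MKM1, coded male, held no read of the Y-linked Ddx3y and 352 CPM of the female-specific Xist, and EVFN1 held 29.3 CPM of Ddx3y and 278 CPM of Xist. The MWM libraries carried RNA of both Ddx3y (13.1 and 17.3 CPM) and Xist (494 and 466 CPM). Lep RNA was at 1336 to 1726 CPM in KO implants, against 806 to 2675 CPM in WT implants, and since the allele is not given this level checks no label. Totals ran from 16444965 to 25805502 reads, and no 2 libraries of a code agreed within sampling noise.

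The promoters of the 3 genes whose levels differed most often between tissues are shown because motif matches in them differ. Each is the 250 bases before a RefSeq gene start on GRCm38.p6, read on the gene's own strand. Capitals mark matches, on either strand, to the AP-1 motif (TGANTCA), the PU.1 motif (GAGGAAG, here as its reverse complement) or the E-box (CACGTG).
Il1rn: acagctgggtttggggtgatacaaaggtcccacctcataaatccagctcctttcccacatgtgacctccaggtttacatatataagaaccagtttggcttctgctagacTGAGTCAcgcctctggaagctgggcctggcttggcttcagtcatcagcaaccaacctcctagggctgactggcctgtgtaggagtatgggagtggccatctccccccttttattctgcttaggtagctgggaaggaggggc
Tnf: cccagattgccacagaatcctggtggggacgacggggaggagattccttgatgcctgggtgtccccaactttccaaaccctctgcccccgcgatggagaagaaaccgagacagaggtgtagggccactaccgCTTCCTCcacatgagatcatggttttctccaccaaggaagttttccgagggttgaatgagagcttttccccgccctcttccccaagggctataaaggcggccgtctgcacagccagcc
Il1r2: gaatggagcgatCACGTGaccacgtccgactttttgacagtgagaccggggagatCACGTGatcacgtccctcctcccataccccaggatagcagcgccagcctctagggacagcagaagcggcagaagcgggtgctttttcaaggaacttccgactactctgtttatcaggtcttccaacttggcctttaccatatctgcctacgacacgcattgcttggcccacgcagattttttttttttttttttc

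The Il1rn window lies at chr2:24336610-24336859 on the plus strand and is 1 of 3 RefSeq windows of that gene; its AP-1 match begins 141 bases before the start, and the other 2 windows hold no match. The Tnf window lies at chr17:35202008-35202257 on the minus strand, with a PU.1 match 118 bases before the start. The Il1r2 window lies at chr1:40085843-40086092 on the plus strand, with E-box matches 238 and 195 bases before the start. Among 32851 RefSeq promoter windows of the same length, 6.75% held an AP-1 match, 10.6% a PU.1 match and 6.02% an E-box match. The kappaB motif, searched by name, was in 3.90% of all windows and in none of these 3, and the palindromic glucocorticoid response element, also searched by name, was in 0.00913% of all windows and in none of the 14 windows of the 10 genes. A match describes letters in a window and is not a measured site.

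Per kilobase of merged exon (GENCODE M21), which allows levels of different genes to be compared, the means of the receptor genes Tnfrsf1a, Il1r1 and Il6ra lay above those of every cytokine gene in each tissue, while the mean of Il1r2 did so in subcutaneous fat only. Tnfrsf1a, the main TNF receptor of most cells, was highest, at 105 ± 9.75 CPM per kb in KO implants (n = 3), 80.9 ± 21.5 in WT implants (n = 4), 86.7 ± 10.9 in visceral fat (n = 5) and 97.4 ± 11.1 in subcutaneous fat (SD, n = 2). Il1r1, the signalling IL-1 receptor, and Il6ra, the IL-6 binding chain, lay between 6.69 and 26.3 CPM per kb in every library. Il18 and Il33, cytokines of the IL-1 family that cells store as precursor or nuclear protein, lay between 2.19 and 8.45 CPM per kb. Il1b, Tnf and Il6 reached no more than 0.925, 1.49 and 0.117 CPM per kb in any library.

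**Figure D1:**
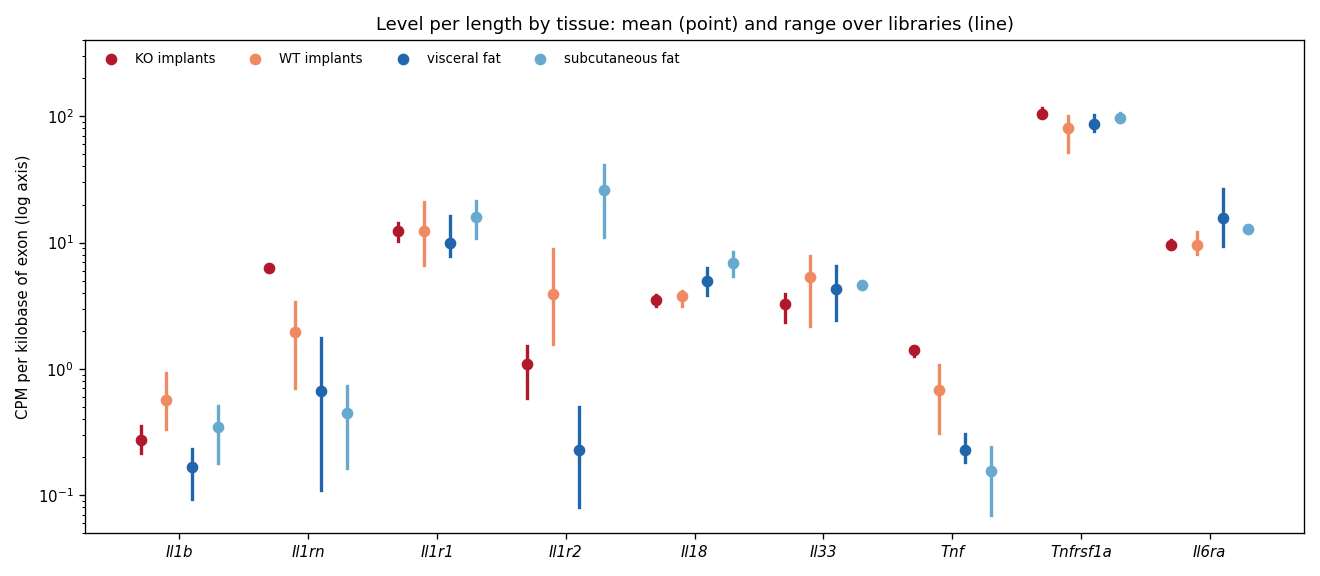
Level per length of 9 of the 10 genes in KO implants, WT implants, visceral fat and subcutaneous fat (CPM per kilobase of merged exon, log axis; point, mean; line, range over the 3, 4, 5 and 2 libraries). Il6 is left out because 4 of 16 libraries had no read; Tnfrsf1a is the highest gene, and Il1rn, Il1r2 and Tnf differ most between the tissues.

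Of the 10 genes, 8 reached at least 1 CPM in 2 of the 14 fitted libraries and were tested among 17871 genes, with limma on log2(CPM + 0.5) and Benjamini-Hochberg adjustment over all of them. Il1b reached it in 1 library and Il6 in none. Tnf reached it in 5 libraries, all of them implants, so its inclusion rests on the groups where it is high. Il1r2 reached it in 9 libraries, all of them implants or subcutaneous fat, so the same holds for Il1r2 against visceral fat. A difference on this scale understates the change of a low gene. The plot of each gene by library gives every value that follows.

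**Figure D2:**
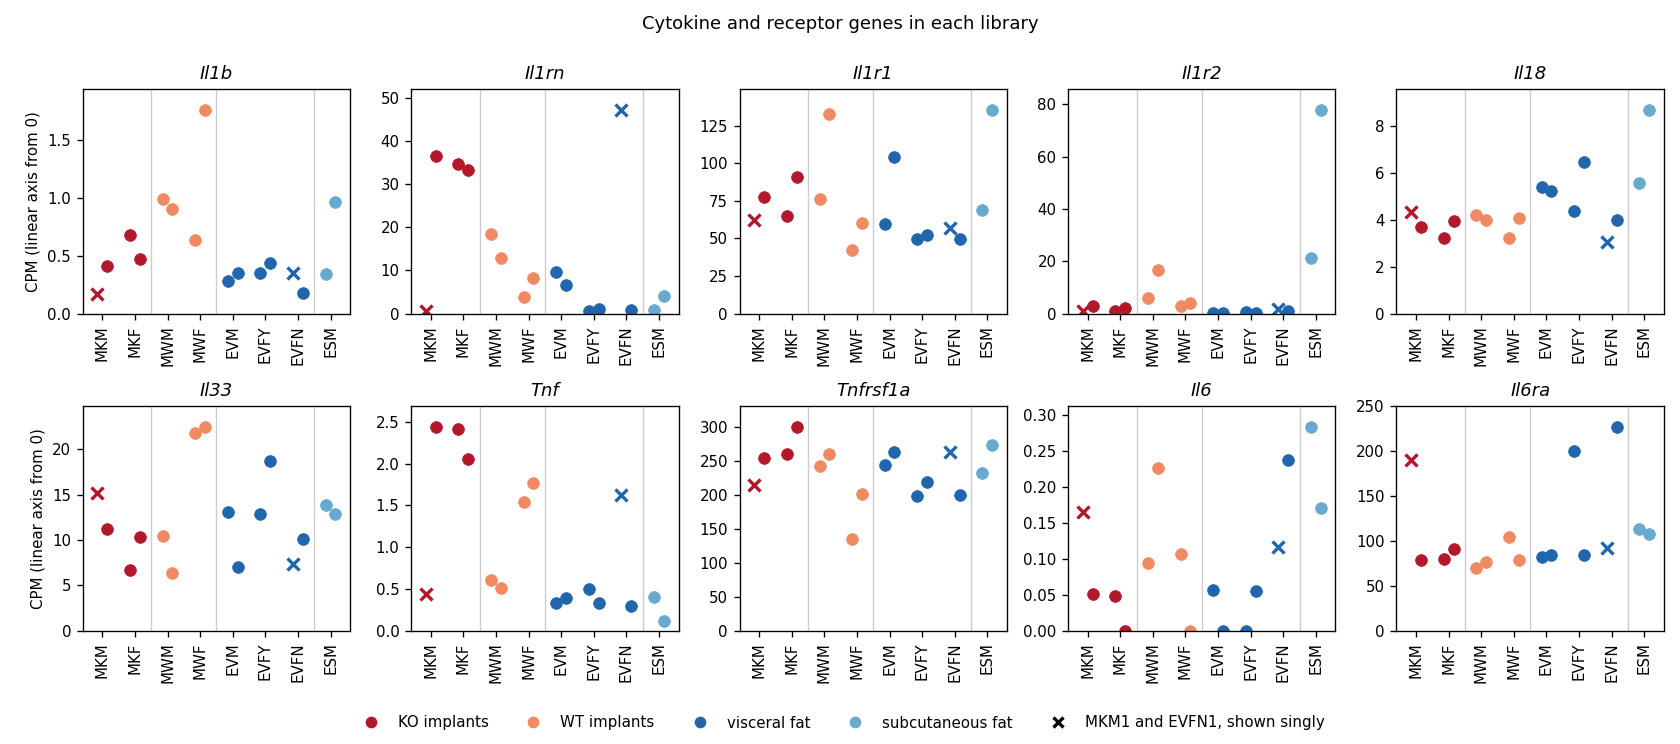
CPM of the 10 genes in each of 16 libraries (linear axes from 0; codes MKM and MKF are KO implants, MWM and MWF WT implants, EVM, EVFY and EVFN visceral fat, ESM subcutaneous fat; crosses, MKM1 and EVFN1). Il1rn sits at 33.3 to 36.6 CPM in the 3 fitted KO implants, at 47.3 CPM in EVFN1 and at 0.661 CPM in MKM1.

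KO implants were compared with WT implants to ask what the leptin genotype of the implanted cells changes in the tissue they form. Il1rn and Tnf were higher in KO implants, and the other 6 tested genes did not pass the threshold of 0.05. These are 2 of 8 genes, beside 10.8% of all tested genes that were called and 6.67% that were higher. Il1r2 and Tnfrsf1a also had an unadjusted p under 0.05 with limma. Il1r2 reached at most 2.90 CPM in KO implants (MKM2, 57 reads) and at least 2.98 CPM in WT implants (MWF1, 56 reads). Counting error covers that gap, with 95% exact Poisson intervals of 2.20 to 3.76 CPM in MKM2 and 2.25 to 3.86 CPM in MWF1. Il1rn, the IL-1 receptor antagonist, had 36.6, 34.7 and 33.3 CPM in the KO implants MKM2, MKF1 and MKF2, against 18.6, 12.9, 3.88 and 8.33 CPM in the WT implants MWM1, MWM2, MWF1 and MWF2. All 3 KO implants lay above all 4 WT implants. The log2 difference was 1.84 ± 0.42 (SE; limma, adjusted p = 0.0275). Tnf had 2.44, 2.42 and 2.06 CPM in the same KO implants, against 0.611, 0.508, 1.54 and 1.76 CPM in the WT implants. The groups did not overlap, but the female WT implants came close, and the counts behind these values were 48 to 50 reads against 9 to 29 reads. The log2 difference was 0.91 ± 0.22 (limma, adjusted p = 0.0308), and edgeR on the recovered reads gave an adjusted p of 0.0658 for Tnf and 0.0326 for Il1rn, with 9.80% of all genes called.

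Both calls rest on single libraries at several points. Il1rn lost its call without MKF1, MKF2, MWM1, MWM2 or MWF1 (log2 difference 1.59 to 2.10 and adjusted p up to 0.0942 over all 14 omissions), and Tnf lost its call without any one of the MKF, MWM or MWF libraries (0.86 to 0.96, adjusted p up to 0.102). With MKM1 and EVFN1 kept as labelled, the log2 difference was 0.59 (adjusted p = 0.804) for Il1rn and 0.50 (adjusted p = 0.463) for Tnf, beside 1.72% of all genes called. MKM1 itself had 0.661 CPM of Il1rn and 0.441 CPM of Tnf, below each of the other KO implants and within the range of the visceral libraries.

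Macrophages are a main source of both transcripts, and their marker genes were also higher in KO than in WT implants. Within WT implants, Tnf was highest in MWF1 and MWF2, at marker means of 152 and 143 CPM. The WT marker means span only 142 to 180 CPM, so these libraries cannot show whether Tnf follows the markers. All 8 macrophage and monocyte markers were detected, and their mean was 476 to 599 CPM in KO implants, against 142 to 180 CPM in WT implants, 120 to 254 CPM in visceral fat and 119 to 159 CPM in subcutaneous fat. The 8 neutrophil markers averaged 3.34 to 4.09 CPM in KO implants and 1.79 to 2.75 CPM in WT implants, and the 5 mast cell markers 50.4 to 63.6 CPM in KO implants and 23.9 to 27.1 CPM in WT implants. The 6 fibroblast and progenitor genes averaged 2139 to 2782 CPM in KO implants and 923 to 1462 CPM in WT implants, and the 5 skeletal muscle genes at most 427 CPM in KO implants and 520 to 7277 CPM in WT implants. EVFN1 had a macrophage mean of 594 CPM with 47.3 CPM of Il1rn and 1.62 CPM of Tnf, and MKM1 had 173 CPM with 0.661 and 0.441 CPM. The part of these cells in the differences was not tested, and in bulk RNA fewer cells of a type and less RNA per cell cannot be told apart.

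**Figure D3:**
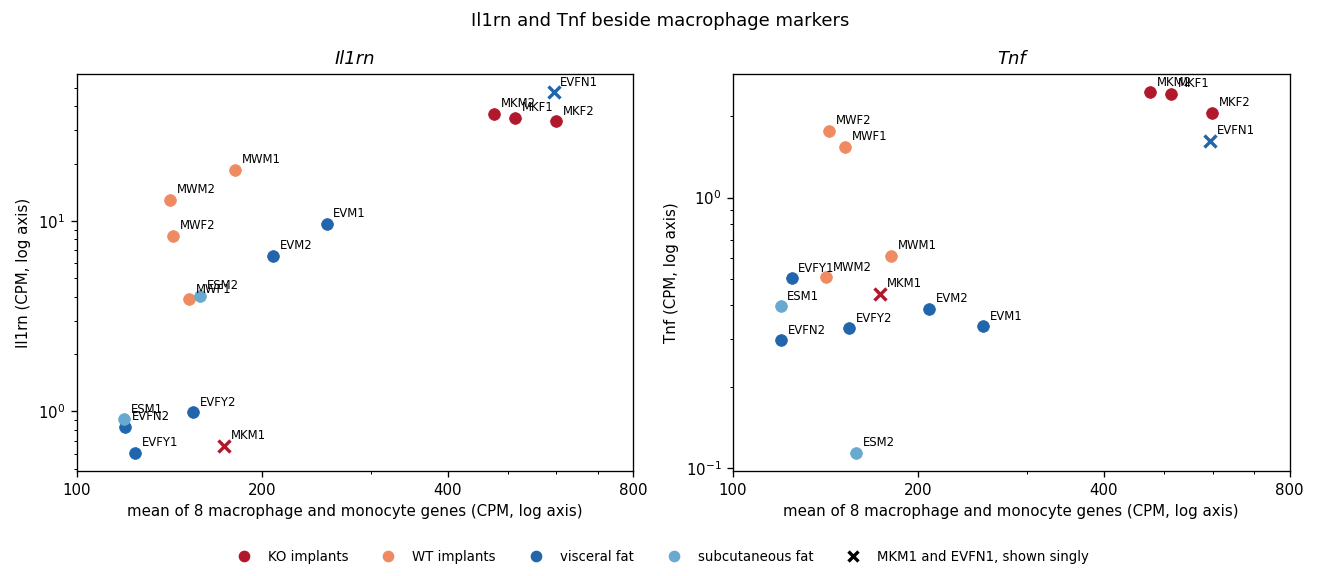
CPM of Il1rn (left) and Tnf (right) against the mean of 8 macrophage and monocyte genes, both axes logarithmic, 1 point per library. The 3 KO implants and EVFN1 lie at marker means of 476 to 599 CPM and at the highest Il1rn; for Tnf, MWF1 and MWF2 are also high at marker means of 152 and 143 CPM.

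The genotype difference was also taken within the male and the female codes, where the male KO side is the single library MKM2 and is assumed to vary like the others. In this comparison, male, female and sexes name the codes only. MKM2 had 80.6 CPM of Ddx3y and 3.77 CPM of Xist. The MWM libraries had 13.1 and 17.3 CPM of Ddx3y and 494 and 466 CPM of Xist. The male codes thus differ in sex genes as well as in genotype. In the female codes, 3 of 8 genes passed, beside 16.5% of all tested genes. Il1rn was higher in MKF than in MWF (log2 difference 2.47 ± 0.54, adjusted p = 0.0167), Tnfrsf1a was higher (0.76 ± 0.19, adjusted p = 0.0314) and Il33 was lower (-1.36 ± 0.35, adjusted p = 0.0312). Il33, an alarmin released by damaged stromal cells, had 6.72 and 10.3 CPM in MKF, against 21.8 and 22.5 CPM in MWF. The MWF libraries had the 2 highest Il33 values of all 16. Tnfrsf1a had 260.1 and 300.3 CPM in MKF, against 135 and 201 CPM in MWF; the median difference of all genes in this comparison was -0.20, and -0.08 after median-of-ratios scaling. With MKM1 and EVFN1 kept, Il33 alone of these passed (adjusted p = 0.0493; 0.0619 for Tnfrsf1a and 0.365 for Il1rn), beside 5.68% of all genes. The calls were lost without MKF1, MKF2 or MWF1 for Il1rn, without any MKF or MWF library for Il33 and without MKF1, MKF2, MWM1, MWM2 or MWF1 for Tnfrsf1a.

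In the male codes none of the 8 genes passed, beside 1.41% of all tested genes with limma and 1.43% with edgeR, and 1 gene with limma and 2 with edgeR had an unadjusted p under 0.05. Tnf had 2.44 CPM in MKM2, against 0.611 and 0.508 CPM in MWM (log2 difference 1.48 ± 0.33, adjusted p = 0.0755), and 2.42 and 2.06 CPM in MKF, against 1.54 and 1.76 CPM in MWF (0.35 ± 0.27, adjusted p = 0.398). Il1rn in the male codes differed by 1.21 ± 0.66 (adjusted p = 0.437). The difference between the sexes was itself tested and passed for 0 of 8 genes with limma and with edgeR, beside 0.548% of all genes with limma and 0.0% with edgeR, and 3 genes with limma and 2 with edgeR had an unadjusted p under 0.05. It was 1.79 ± 0.55 (adjusted p = 0.172) for Il33, 1.13 ± 0.43 (adjusted p = 0.255) for Tnf and -1.26 ± 0.85 (adjusted p = 0.494) for Il1rn, male minus female.

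Other cell types marked the MWF libraries. The list of 7 T cell genes averaged 49.3 and 73.7 CPM in MWF, against at most 6.64 CPM in any other library, the 6 lung and airway genes 77.0 and 87.6 CPM, against 44.9 and 21.9 CPM in MWM and 1.57 to 4.76 CPM in the 3 KO implants, and the 5 B cell genes 162 and 90.7 CPM. T cells are a known source of Tnf. The part of these cells in the MWF levels of Tnf and Il33 was not tested.

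The implants were set against endogenous fat, first visceral fat. Il1rn and Tnf were higher in both kinds of implant, and Il1r2 was higher in WT implants. For KO implants this is 2 of 8 genes, beside 24.6% of all genes called (16.4% higher and 8.25% lower), and for WT implants 3 of 8, beside 22.4% (15.9% higher and 6.5% lower). The comparisons share the visceral libraries, and neither Tnf nor Il1r2 reached 1 CPM in any fitted one of these. Il1rn had 9.65, 6.55, 0.603, 0.987 and 0.832 CPM in the visceral libraries EVM1, EVM2, EVFY1, EVFY2 and EVFN2, beneath every KO implant but overlapping the WT implants through EVM1 and EVM2. The log2 difference was 3.88 ± 0.41 for KO implants (adjusted p = 0.000407) and 2.03 ± 0.37 for WT implants (adjusted p = 0.00675), both called in each of the 14 omissions of a library.

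Tnf had 0.335, 0.388, 0.503, 0.329 and 0.297 CPM in the same visceral libraries, from 5 to 10 reads each. Every KO and WT implant in the fit lay above them, the nearest being MWM2 at 0.508 CPM. The log2 difference was 1.73 ± 0.21 for KO implants (adjusted p = 0.000777) and 0.82 ± 0.19 for WT implants (adjusted p = 0.0172), and the WT call was lost without MWM1 (adjusted p = 0.0699). With MKM1 and EVFN1 as labelled, Il1rn differed by 1.77 (adjusted p = 0.479) in KO implants and 1.17 (adjusted p = 0.503) in WT implants, and Tnf by 1.08 (adjusted p = 0.431) and 0.58 (adjusted p = 0.299). In that fit 0.0% of all genes were called between KO implants and visceral fat, and 9.66% between WT implants and visceral fat.

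Il1r2, the decoy receptor, had 6.06, 16.8, 2.98 and 4.07 CPM in the WT implants MWM1, MWM2, MWF1 and MWF2, against 0.223, 0.155, 0.452, 0.384 and 0.951 CPM in visceral fat. Each WT implant lay above each visceral library, of which none held more than 16 reads of the gene. The log2 difference was 2.75 ± 0.43 (adjusted p = 0.00349), and 2.66 (adjusted p = 0.00791) with EVFN1 kept. The KO implants had 2.90, 1.11 and 2.23 CPM, also above every visceral library (1.46 ± 0.48, adjusted p = 0.0566; edgeR, adjusted p = 0.0243), and differed from WT implants by -1.29 ± 0.49 (adjusted p = 0.129).

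Hepatocyte and skeletal muscle markers were higher in each WT implant than in any fitted visceral library. KO implants overlapped visceral fat in both, through MKF2 for the hepatocyte genes and through MKM2 and MKF1 for the skeletal muscle genes. The 6 hepatocyte genes averaged 7.57 to 1403 CPM in KO implants and 404 to 1843 CPM in WT implants, against 1.39 to 10.5 CPM in visceral fat, and skeletal muscle genes lay at 4.82 to 139 CPM in visceral fat, beside the implant values given above. Macrophage markers were higher in each KO implant than in any visceral library, while the WT implants, at 142 to 180 CPM, lay within the visceral range of 120 to 254 CPM. The part of these cells in the differences was not tested.

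**Figure D4:**
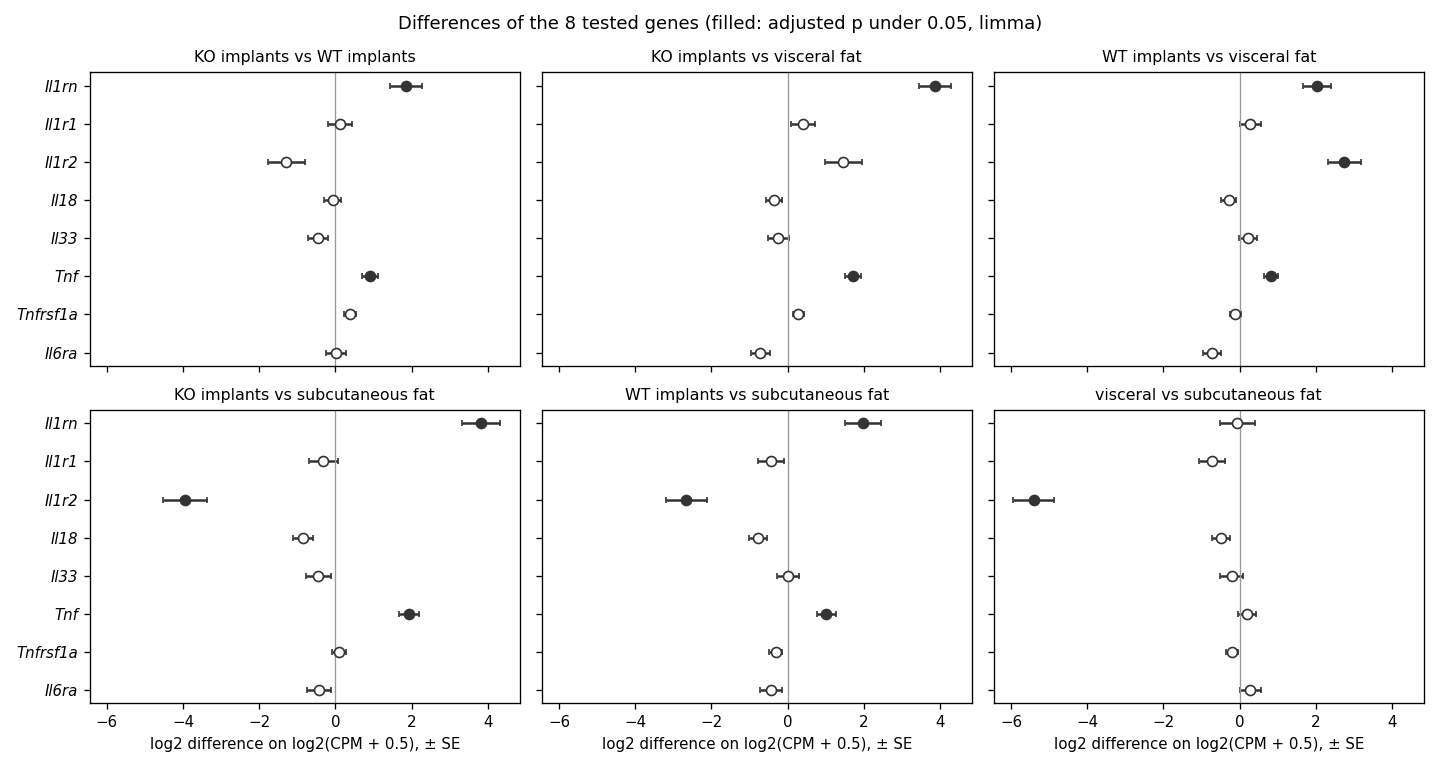
Log2 difference (first named tissue minus second, on log2(CPM + 0.5), ± SE) of the 8 tested genes in 6 comparisons; filled points have an adjusted p under 0.05 (limma). Il1rn and Tnf are filled and positive in all 5 comparisons that involve implants, and Il1r2 is filled in 4 comparisons, positive for WT implants against visceral fat and negative in all 3 against subcutaneous fat.

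Subcutaneous fat differed most in Il1r2. The gene had 21.2 and 78.0 CPM in ESM1 and ESM2, from 373 and 1369 reads, and every other library lay below both. It was lower in KO implants (log2 difference -3.95 ± 0.58, adjusted p = 0.00277), in WT implants (-2.66 ± 0.54, adjusted p = 0.0179) and in visceral fat (-5.41 ± 0.53, adjusted p = 0.00184). Between visceral and subcutaneous fat it was the only one of the 8 genes called, beside 1.20% of all genes called and 0.632% lower in visceral fat. It was called in all 3 comparisons with MKM1 and EVFN1 kept (adjusted p = 0.0176, 0.0407 and 0.00233, in the same order, beside 0.273%, 2.47% and 0.323% of all genes called). The WT call was lost without MWM1 or ESM2 (adjusted p up to 0.0919).

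Per kilobase, the signalling receptor Il1r1 was 8.03 to 17.6 times Il1r2 in KO implants, 2.36 to 4.46 times in WT implants and 15.7 to 201 times in visceral fat. In subcutaneous fat the ratio was 0.974 and 0.522, so the decoy receptor equalled or exceeded the signalling one in the RNA there. Il1r1 itself had 77.7, 65.2 and 91.2 CPM in KO implants, 76.1, 133, 42.6 and 60.6 CPM in WT implants, 59.9, 104, 49.6, 52.5 and 49.8 CPM in visceral fat and 68.7 and 136 CPM in subcutaneous fat. The groups overlapped, and its smallest adjusted p in any comparison was 0.326.

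Schwann cell markers were also highest in subcutaneous fat. The 5 of them averaged 133 and 109 CPM in ESM1 and ESM2. They averaged 19.8 to 25.5 CPM in KO implants, 34.7 to 49.0 CPM in WT implants and 10.6 to 18.8 CPM in visceral fat. Within subcutaneous fat, Il1r2 was higher in ESM2 while these markers were higher in ESM1. The genes whose profiles over the 14 libraries were most like that of Il1r2 were Zfhx4 (r = 0.905) and Vat1l (0.904). Keratinocyte genes averaged 0.635 and 19.8 CPM and skeletal muscle genes 19.2 and 3002 CPM in the same ESM1 and ESM2. The part of these cells in the level of Il1r2 was not tested.

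Il1rn and Tnf were also higher in implants than in subcutaneous fat, which gives 3 called genes of 8 together with Il1r2, for KO implants beside 18.3% and for WT implants beside 10.4% of all tested genes. Il1rn had 0.908 and 4.04 CPM in ESM1 and ESM2, below all KO implants and overlapping the WT implants. The log2 difference was 3.82 ± 0.50 in KO implants (adjusted p = 0.00162) and 1.98 ± 0.46 in WT implants (adjusted p = 0.0299; edgeR, 0.0773, with 6.61% of all genes called). Tnf had 0.397 and 0.114 CPM in ESM1 and ESM2, from 7 and 2 reads, below every fitted implant. It differed by 1.93 ± 0.26 in KO implants (adjusted p = 0.00169) and by 1.02 ± 0.24 in WT implants (adjusted p = 0.0286; edgeR, 0.0665). The WT calls were lost in 4 omissions for Il1rn (MWM1, MWM2, MWF2 or ESM1) and in 5 for Tnf (MWM1, MWM2, MWF2, ESM1 or ESM2). With MKM1 kept, neither gene was called in KO implants (adjusted p = 0.353 for Il1rn and 0.166 for Tnf).

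Within visceral fat, Il1rn separated the EVM libraries from the rest, a contrast added after its values were seen. It had 9.65 and 6.55 CPM in EVM, against 0.603 and 0.987 CPM in EVFY and 0.832 CPM in EVFN2. The EVM and EVFY values did not overlap, with a log2 difference of 2.72 ± 0.54 (adjusted p = 0.0609; edgeR, 0.0587). None of the 8 genes was called by limma or edgeR, beside 0.845% of all genes with limma and 1.0% with edgeR, and Il1rn was the 1 gene with an unadjusted p under 0.05 in each tool. The macrophage markers averaged 254 and 208 CPM in EVM and 124 and 155 CPM in EVFY, and EVM differed from EVFY in sex as well, with Ddx3y at 90.7 and 95.5 CPM in EVM and 0 in EVFY. Sex, macrophage content and any difference in surgery cannot be told apart in that contrast, since no label gives the surgery of EVFY. Between EVFY and EVFN, the codes without and with a label that they had no surgery, 0 of 8 genes and 0.0% of 17871 genes passed with limma and with edgeR, and no member had an unadjusted p under 0.05 in either. The EVFN side is the single library EVFN2 there, so this count says little.

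Il6ra differed between libraries of 1 code inside visceral fat. It had 81.9 and 84.3 CPM in EVM, 199.7 and 83.8 CPM in EVFY and 227 CPM in EVFN2, and MKM1 had 191 CPM. The 3 high libraries are thus 1 of each of 3 codes, and the 2 EVFY libraries lie apart. In KO implants it had 78.5, 80.2 and 90.8 CPM, in WT implants 70.2, 76.1, 104 and 78.7 CPM, and in ESM1 and ESM2 113 and 108 CPM. It differed from visceral fat by -0.72 ± 0.26 in KO implants (adjusted p = 0.0727) and by -0.73 ± 0.23 in WT implants (adjusted p = 0.0501). Both passed without EVFY1 (-0.51 in KO implants and -0.52 in WT implants) and without EVFY2 (-0.92 and -0.93). Either omission leaves 1 EVFY library, which takes the spread between 199.7 and 83.8 CPM out of the fit. These calls therefore add no support to the difference. The WT difference also passed with the replicate block (limma, adjusted p = 0.0462). EVFY differed from EVFN by -0.81 ± 0.40 (adjusted p = 1.0). Its closest profiles were those of Elac2 (r = 0.910) and Tob2 (0.900). Gm42809 overlaps Il6ra exons on the opposite strand, and whether the counting used strand is not given in the sources used here.

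IL-1 beta and IL-6 themselves were scarce. Il1b, the inflammatory ligand of Il1r1, had 0.407, 0.676 and 0.472 CPM in KO implants (8, 14 and 11 reads), against 0.987, 0.904, 0.638 and 1.76 CPM in WT implants (21, 16, 12 and 29 reads). The KO and WT values overlapped. Visceral fat had 0.279, 0.349, 0.352, 0.439 and 0.178 CPM, and ESM1 and ESM2 had 0.340 and 0.968 CPM. In the fit without a filter on low values, Il1b differed by -0.63 between KO and WT implants (adjusted p = 0.268) and by 0.95 between WT implants and visceral fat (adjusted p = 0.0413). The antisense gene Il1bos overlaps its exons, so the same limit on strand holds.

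Per kilobase, the antagonist Il1rn was 17.7 to 31.0 times Il1b in the 3 KO implants, 1.63 to 6.48 times in WT implants, 0.591 to 11.9 times in visceral fat and 0.919 and 1.44 times in subcutaneous fat. The KO range lay above all others among the fitted libraries, and EVFN1 had 46.9 and MKM1 1.38. With 3 to 29 reads of Il1b per library, each ratio carries a wide counting error. The 95% exact Poisson interval of Il1b, for example, was 0.176 to 0.803 CPM in MKM2 and 1.18 to 2.53 CPM in MWF2, and covers counting error only.

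Il6 had 0 to 5 reads per library. It was listed at 0 in MKF2, MWF2, EVM2 and EVFY1, which allows up to 0.129, 0.182, 0.116 and 0.151 CPM in them (3 reads). The highest values were 0.284 CPM in ESM1 and 0.238 CPM in EVFN2, from 5 and 4 reads. Il6 did not enter the main fit, and no difference between tissues is read from these counts. Its promoter window held a kappaB match 44 bases and an AP-1 match 249 bases before the start.

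Il18, Il33 and Tnfrsf1a were not called between the 4 tissues in the 14-library limma fit. Il18, which inflammasome caspases activate, had 3.72, 3.24 and 3.95 CPM in KO implants, 4.23, 4.01, 3.24 and 4.07 CPM in WT implants, 5.41, 5.23, 4.37, 6.47 and 3.98 CPM in visceral fat and 5.56 and 8.71 CPM in subcutaneous fat. All implants lay below both subcutaneous libraries (log2 difference -0.85 ± 0.26, adjusted p = 0.0520 for KO, and -0.77 ± 0.24, adjusted p = 0.0775 for WT; edgeR, 0.0311 and 0.0516). Il18 passed in both comparisons with median-of-ratios scaling (adjusted p = 0.0280 for KO and 0.0419 for WT), and for KO implants also with the replicate block (0.0340) and without EVFY1, EVFY2 or ESM1 (0.0479, 0.0480 and 0.0470). Il33 had 11.2, 6.72 and 10.3 CPM in KO implants, 10.4, 6.32, 21.8 and 22.5 CPM in WT implants, 13.1, 7.05, 12.9, 18.7 and 10.1 CPM in visceral fat and 13.9 and 12.9 CPM in ESM. Tnfrsf1a had 254, 260.1 and 300.3 CPM in KO implants, 243, 259.8, 135 and 201 CPM in WT implants, 244, 263, 198, 219 and 199 CPM in visceral fat and 232 and 273 CPM in ESM. Tnfrsf1a overlapped between all tissues. Il33 did too, except that every fitted KO implant lay below ESM1 and ESM2. The KO and WT implants differed in Tnfrsf1a by 0.39 ± 0.15 (adjusted p = 0.140).

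The genes around these members were counted in 4 lists, each read against all tested genes. In the IL-1 and inflammasome list, 9 of 21 tested genes rose in KO implants against visceral fat (median 0.52, against 0.08 over all genes), beside 16.4% of all genes. In WT implants 5 of 21 rose (0.29, against 0.11), beside 15.9% of all genes. Casp1, the protease that matures IL-1 beta and IL-18, averaged 28.3 ± 1.58 CPM in KO implants (n = 3) and 9.49 ± 0.755 CPM in visceral fat (n = 5), a difference of 1.52 (adjusted p = 0.000277). It averaged 19.8 ± 2.87 CPM in WT implants (n = 4), 1.02 above visceral fat (adjusted p = 0.00142). Pycard, the inflammasome adaptor, and Aim2, a DNA sensor, rose too (1.75, adjusted p = 0.00336, and 1.63, adjusted p = 0.00232, in KO implants). With MKM1 and EVFN1 as labelled, none of the 21 passed in KO implants and 1, Il18r1, in WT implants.

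Between KO and WT implants, 2 of the 21 rose and none fell, close to the 6.67% and 4.1% of all genes. Il1rl1, the IL-33 receptor carried by mast cells and other immune cells, averaged 20.3 ± 3.07 CPM in KO implants and 8.90 ± 1.35 CPM in WT implants (1.14, adjusted p = 0.0195), and mast cell markers moved with it as given above. Nlrc4, an inflammasome sensor, averaged 12.2 ± 1.06 CPM in KO implants and 5.63 ± 3.53 CPM in WT implants (1.22, adjusted p = 0.0234). Il1rl2, the IL-36 receptor, was lower in visceral than in subcutaneous fat, at 13.7 ± 4.69 CPM (n = 5) and 81.3 ± 40.7 CPM (n = 2), a difference of -2.51 (adjusted p = 0.0349). It lies beside Il1r1 and Il1r2 in the mouse genome and was the 1 gene of the 21 called between those depots. With MKM1 and EVFN1 kept, Il1rl2 passed (adjusted p = 0.0354), and Il1rl1 and Nlrc4 did not (0.0768 and 0.175).

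In the TNF list, 6 of 19 genes rose and 3 fell in KO implants against WT implants, beside 6.67% and 4.1% of all genes. Tnfrsf1b, the TNF receptor found mainly on immune cells, averaged 205 ± 15.4 CPM in KO implants and 82.6 ± 11.6 CPM in WT implants (1.29, adjusted p = 0.00259). Tnfrsf11a, the RANK receptor of osteoclasts and macrophages, averaged 54.6 ± 4.41 CPM in KO implants and 12.0 ± 2.87 CPM in WT implants (2.14, adjusted p = 0.00207). Tnfsf12, the ligand TWEAK, rose (1.08, adjusted p = 0.0131), and Birc2, which keeps the receptor complex from triggering cell death, fell (-0.67, adjusted p = 0.00815). With MKM1 and EVFN1 kept, 1 of the 19 passed, Tnfsf11, which was lower, and these 4 had adjusted p-values of 0.149, 0.202, 0.151 and 0.102. Macrophage markers were higher in KO than in WT implants, as were Tnfrsf1b and Tnfrsf11a, and the part of macrophages was not tested.

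In WT implants against visceral fat, 8 of the 19 TNF genes rose and 1 fell, beside 15.9% and 6.5% of all genes. The lymphotoxin genes Lta and Ltb, made by lymphocytes, rose by 1.53 (adjusted p = 0.00838) and 2.95 (adjusted p = 0.0119), and Traf1, an adaptor of activated lymphocytes, by 1.85 (adjusted p = 0.000976). Ltb ran from 4.51 to 127 CPM over the 4 WT implants, beside the T and B cell markers that were highest in MWF. In KO implants against visceral fat, 8 of the 19 rose and 2 fell, beside 16.4% and 8.25% of all genes, and none of the 19 passed with MKM1 and EVFN1 kept, against 6 of 19 higher in WT implants.

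In the IL-6 list, 17 of 19 genes were tested, and 1 fell and none rose between KO and WT implants, beside 4.1% and 6.67% of all genes. Ctf1, the cytokine cardiotrophin-1, averaged 1.88 ± 0.805 CPM in KO implants and 5.20 ± 0.638 CPM in WT implants (-1.18, adjusted p = 0.00623; 0.244 with MKM1 and EVFN1 kept). In WT implants against visceral fat, 4 of the 17 rose, beside 15.9% of all genes, and 2 of the 17 with EVFN1 kept. Cntfr, a receptor for ciliary neurotrophic factor, averaged 29.5 ± 5.10 CPM in WT implants and 12.1 ± 6.11 CPM in visceral fat (1.42, adjusted p = 0.00266). Il6st, the shared signalling chain that Il6ra needs, was at 34.1 ± 1.70 CPM per kb in KO implants, 39.3 ± 4.14 in WT implants, 42.9 ± 7.05 in visceral fat and 44.0 ± 0.404 in subcutaneous fat.

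In the NF-kB list, which holds subunits and target genes of the factor through which IL-1 and TNF act, 1 of 20 genes rose and 1 fell between KO and WT implants, near the 6.67% and 4.1% of all genes. The chemokine gene Cxcl2 rose (3.05 ± 0.293 CPM in KO implants, 0.931 ± 0.845 CPM in WT implants, 1.49, adjusted p = 0.0263) and the subunit gene Relb fell (29.9 ± 1.31 CPM in KO implants and 42.6 ± 7.61 CPM in WT implants, -0.50, adjusted p = 0.0216). Cxcl2 passed with MKM1 and EVFN1 kept (adjusted p = 0.0386), and Relb did not (0.0871). Against visceral fat, 8 rose and 1 fell in KO implants, beside 16.4% and 8.25% of all genes, and 7 rose in WT implants, beside 15.9%, of which 3 passed with EVFN1 kept. Nfkbie and Nfkb2, an inhibitor and a subunit of the same pathway, led the WT list (1.52, adjusted p = 0.000929, and 0.90, adjusted p = 0.00137), and both passed with EVFN1 kept (0.00855 and 0.00534). Ptgs2, which encodes an inducible enzyme of prostaglandin synthesis, fell in KO implants (0.162 ± 0.180 CPM, against 1.96 ± 0.743 CPM in visceral fat, adjusted p = 0.00627), and none of the 20 passed there with MKM1 and EVFN1 kept.

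**Figure D5:**
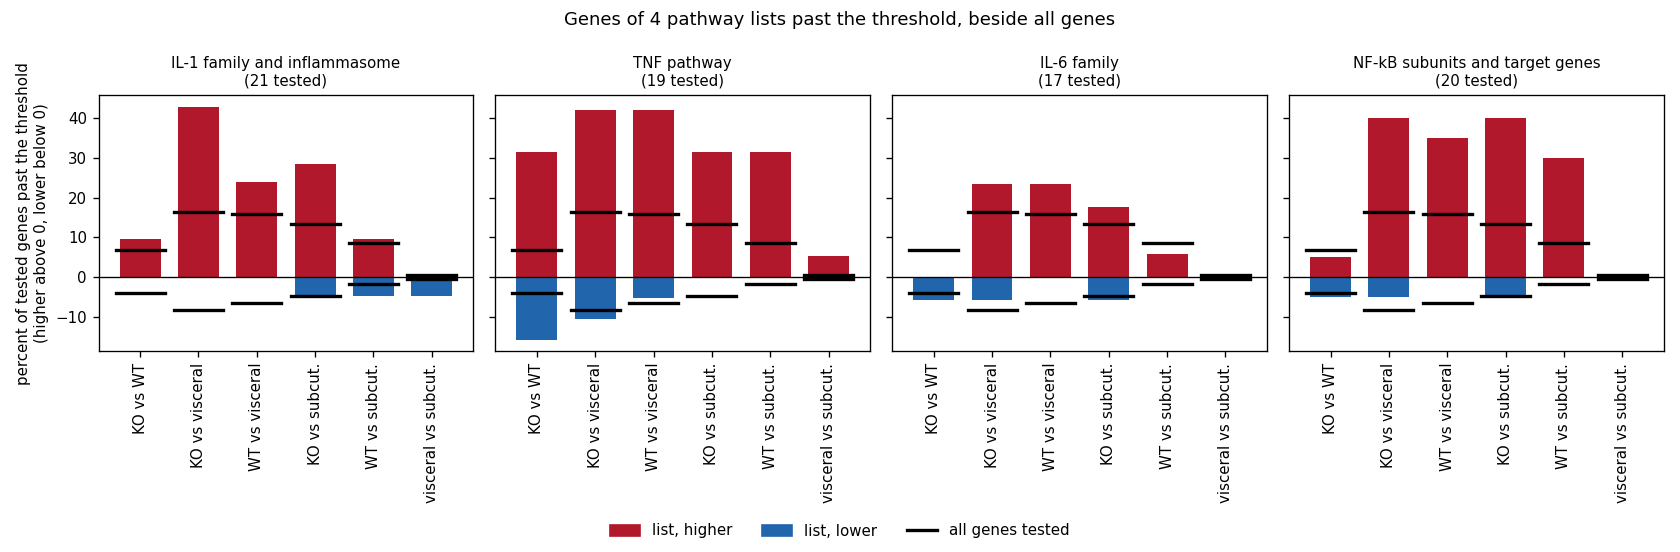
Percent of tested genes past an adjusted p of 0.05 (limma), higher above 0 and lower below 0, for 4 lists in 6 comparisons; black lines give the same percent over all 17871 genes. In KO implants against visceral fat, 9 of 21 IL-1 and 8 of 19 TNF genes are higher, beside 16.4% of all genes.

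Across the 14 libraries, the profile nearest to that of Il1rn was F7, coagulation factor VII (Pearson r = 0.976 on log2(CPM + 0.5)), followed by Vac14 (0.974) and Tbcb (0.974). In the 2 libraries outside the fit, F7 had 47.4 CPM in EVFN1 and 0.386 CPM in MKM1, beside 47.3 and 0.661 CPM of Il1rn. Nearest to Tnf were Slc35b3 (0.973), Sharpin (0.967) and Rabggta (0.961), nearest to Il1r1 was Creb3l1 (0.919), nearest to Il18 Olfml2b (0.906), nearest to Il33 Nmi (0.893) and nearest to Tnfrsf1a Ralb (0.934). These are descriptions over libraries that share tissue and group.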

How the data were processed

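The authors deposited 1 table of CPM values per gene. STAR 2.5.4 and featureCounts (Subread 1.6.3), with FastQC 0.11.4 and cutadapt 2.7, are named beside mm10 per the submitters' processing notes. Annotation release and strand setting: not given in the sources used here. RNase H depletion of ribosomal RNA and random hexamer priming are stated per the labels' protocols. No deposited column was left unused.

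The deposited CPM values were whole multiples of 1 read (tolerance 0.001 read) in 100% of values, so read counts were recovered. Genes with at least 1 CPM in 2 of 14 libraries were fitted with limma 3.58.1 (R 4.3.3) on log2(CPM + 0.5), with a mean-variance trend, robust empirical Bayes and 1 term per code; codes weigh equally in a contrast, and 6 residual degrees of freedom remain. MKM1 and EVFN1 entered only as an alternative. The fit was run on simulated data with the same spread for all genes and with changes only in genes above the level of Tnf. That run does not bear on genes as low as Tnf. Other alternatives were pseudocounts of 0.1 and 2, no filter, median-of-ratios scaling, edgeR 4.0.16 on the recovered reads (1752 genes called between KO and WT implants, against 1924 with limma), a replicate block and leaving out each library. Intervals and the floor of 3 reads cover counting error only.

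Named beside the 10 genes are Lep, up to 4 genes per list with the smallest adjusted p, and 3 genes most like each tested member with a mean of at least 5 CPM. Some of these are not reported here. The genes, lists and tests were chosen with earlier results of these data known. Gene lengths are merged GENCODE M21 exons, and promoter sequences are RefSeq's.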

Additional observations from a re-analysis of the deposited data

Results flagged for a closer look

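A library was picked out where its gap to the nearest other library of its tissue was over a set share of the whole range (Dixon's 95% limit). Chance alone picks about 1 in 20 groups, and 7 of 40 tests did so here. Of the 7, 4 concern MKM1 or EVFN1.

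Il1rn stood at 0.661 CPM in MKM1, below the other KO implants (33.3 to 36.6 CPM), and reached 47.3 CPM in EVFN1, above the other visceral libraries (0.603 to 9.65 CPM). Tnf stood at 1.62 CPM in EVFN1, above the other visceral libraries (0.297 to 0.503 CPM), and Il6ra at 191 CPM in MKM1, above the other KO implants (78.5 to 90.8 CPM). These are the libraries that correlated best with the other tissue.

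Il1r1 stood at 104 CPM in EVM2, above the other visceral libraries (49.6 to 59.9 CPM), both with and without EVFN1. Il6 stood at 0.238 CPM in EVFN2, above the other visceral libraries (0 to 0.0558 CPM), on 4 reads.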

How the results depend on the processing

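With all 16 libraries kept as labelled, the number of the 8 tested genes called was 0 for KO against WT implants, 0 for KO implants against visceral fat, and 1 each for WT implants against visceral fat, WT against subcutaneous, KO against subcutaneous and the female codes, and Il1rn in the male codes turned to -1.29 (adjusted p = 0.739). For KO against WT implants the count was 1 with a pseudocount of 0.1 and 1 with edgeR; for WT implants against subcutaneous fat it was 1 with edgeR; for the male codes it was 1 with a pseudocount of 2; and for EVM against EVFY it was 1 with median-of-ratios scaling. Leaving out 1 library at a time gave 0 to 2 calls for KO against WT implants, 0 to 3 for WT implants against subcutaneous fat, 0 to 3 for the female codes and 0 to 1 for EVM against EVFY. The cause was not tested, except that each omission leaves fewer libraries. Calls of Il1rn and Tnf in KO implants against either endogenous fat, of Il1rn and Il1r2 in WT implants against visceral fat, and of Il1r2 in KO implants and visceral fat against subcutaneous fat held in all 14 omissions. Of 71 member differences that were not called, 24 changed sign under at least 1 alternative.

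Replicate numbers did not pair the libraries: deviations of same-numbered libraries correlated at -0.44 to 0.34 over 15 pairs of codes, 7 of them over 0.1. With the number as a replicate block, 2 of 8 genes were called for KO against WT implants, and no count of members moved by over 1.5 times. Median-of-ratios scaling moved the median of all genes by over 0.1 in 5 comparisons, from 0.12 to 0.00 in the male codes, 0.25 to 0.02 in the difference between sexes, 0.14 to 0.03 for WT implants and 0.12 to 0.01 for KO implants against subcutaneous fat, and for the female codes as given above. Depth limits Il1b, Il6 and Tnf, which had 3 to 29, 0 to 5 and 2 to 50 reads per library.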
